A study of Mus musculus with 10 samples.

Results

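The control lungs of the series were described on their own, as a picture of gene expression in the whole lung of a mouse that had received no cytokine. The rule took the 5 control libraries of the 10 in the series, used the reads counted per gene in each, and made no test against the other 5. Each control library is RNA from the lung of a BALB/c mouse described as untreated, taken into RNALater, extracted with the RNeasy Plus Mini kit, selected for polyA RNA and sequenced with a KAPA stranded kit. The other 5 mice were given 1 µg of IL-33 in 35 µL through the nose on each of 5 days and were sampled 24 hours after the last dose. The sources used here do not give the sex or age of the mice, the time of day, whether controls received vehicle, or whether lungs were perfused or trimmed of neighbouring tissue. The 5 samples are treated as separate mice, as the labels have them, and the spread given below is the spread between these 5 libraries.

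The lung is built of alveoli, where flat alveolar type 1 cells lie against capillaries for gas exchange and cuboidal alveolar type 2 cells secrete surfactant, the lipid and protein film that lowers surface tension. The conducting airways are lined by secretory club cells, ciliated cells and, in larger airways, goblet and basal cells. Fibroblasts, pericytes and smooth muscle give support, and resident macrophages and blood-borne leukocytes patrol the tissue. A whole-lung library mixes the RNA of all of them, so fewer cells of a type and less RNA per cell cannot be told apart.

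Between 8935159 and 13767118 reads per control library were assigned to genes. Of all records, 15% to 16.2% were multiply aligned and 10.4% to 11.1% fell in no gene, and neither kind is part of the counts. A count of 3 reads stood for 0.218 to 0.336 CPM (reads per 1000000 counted reads). At least 1 CPM was reached by 14957 to 15291 genes per library. In all 5 libraries 14303 genes reached it, and 13408 of these code for protein. Another 1718 genes reached it in some libraries only, and 25844 of the 53465 listed genes had no read in any. All 5 libraries had Xist, the RNA of the inactive X chromosome, at 440 to 543 CPM, and the Y-linked genes Ddx3y, Eif2s3y and Uty had 0 reads in each. The Y-linked Kdm5d had at most 0.11 CPM, below the level of 3 reads.

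Expression was spread over many genes, with a short and steep head. The 10 most abundant genes took 6.06% ± 0.251 (SD, n = 5) of counted reads, the 100 most abundant 18.4% ± 0.390 and the 1000 most abundant 47.05% ± 0.483. Between 1125 and 1194 genes were needed to reach 50% of reads. Genes with a mean of 1000 CPM or more numbered 69 and held 15.6% of reads, while 2343 genes at 100 to 1000 CPM held 50.3%. The 4613 genes at 1 to 10 CPM held 1.95%. The share in the most abundant genes varied little: the 100 most abundant took 18.0% of reads in the lowest library and 19.0% in the highest.

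To compare genes with each other, reads were divided by exonic length and scaled to a sum of 1000000 per library (TPM), and levels between genes are compared on that scale only. The median over the 14303 genes was 20.4 TPM. Scgb1a1, the club cell secretoglobin and most abundant protein of the airway lining, led in every library. It measured 125438, 115349, 110520, 117486 and 120097 TPM in controls 1 to 5, a mean of 117778 ± 5539 (SD, n = 5). Its gene, ENSMUSG00000024653, lies on the minus strand of chromosome 19 from 9083636 to 9087958 in GRCm38.

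Sftpc, surfactant protein C of alveolar type 2 cells, came next in every library. Its mean was 33550 ± 2323 TPM, and its ranges overlapped neither Scgb1a1 above nor mt-Co1 below. Lyz2, a lysozyme made by macrophages and by alveolar type 2 cells, followed the mitochondrial transcripts mt-Co1, mt-Cytb and mt-Nd1 at 9251 ± 315 TPM. Cbr2, a carbonyl reductase of club cells, stood at 6980 ± 736 TPM. Sftpb, surfactant protein B, had 4797 ± 271 TPM, and Sftpa1, the surfactant collectin A, had 3552 ± 35.4 TPM. Cyp2f2, the club cell cytochrome P450 that activates inhaled aromatic compounds, had 3310 ± 216 TPM. The alveolar fibroblast enzyme gene Inmt had 3859 ± 242 TPM, and Ager, the receptor that marks alveolar type 1 cells, had 2623 ± 182 TPM.

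**Figure D1:**
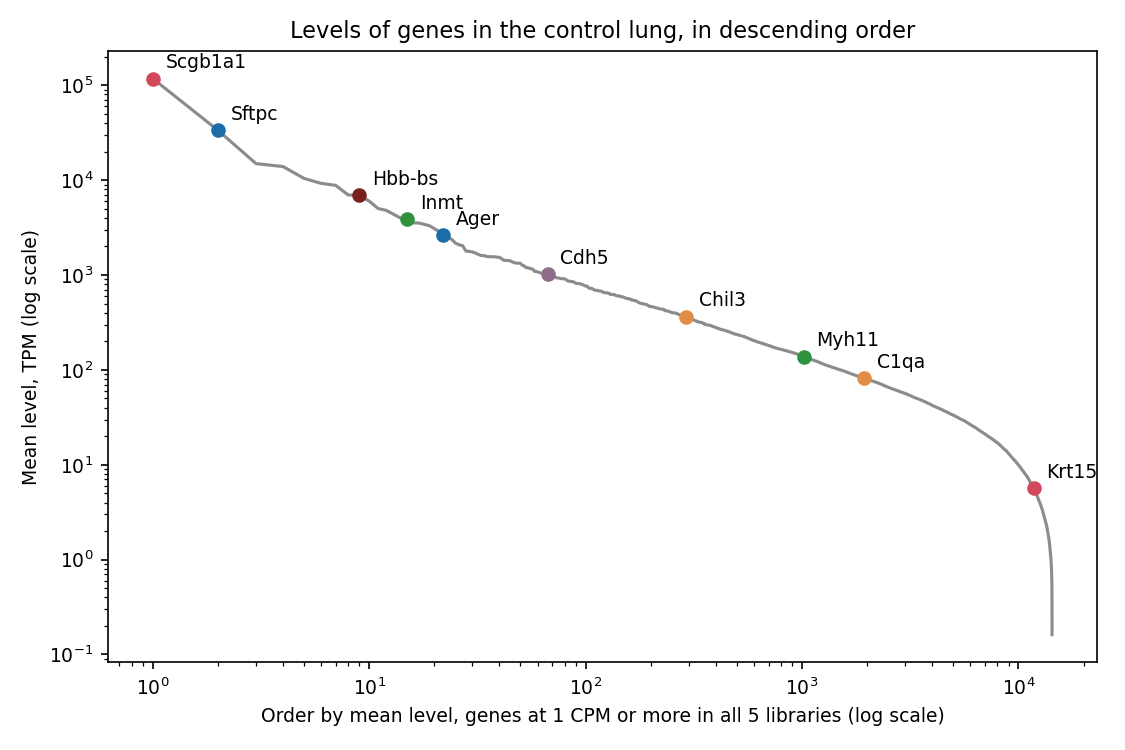
Mean level in TPM (log scale) against the order of the 14303 genes at 1 CPM or more in all 5 control libraries (log scale); named points are marker genes of airway, alveolar, blood, stromal, endothelial, macrophage and basal cells. Scgb1a1 stands at 117778 TPM, the endothelial cadherin Cdh5 at 1023 TPM, and the basal cell keratin Krt15 at 5.67 TPM.

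The order was firm at its head and loose below. Of the 25 pairs of neighbours from Scgb1a1 down to Gpx3, the glutathione peroxidase next below the highest 25, 11 stood in the same order in all 5 libraries and 6 had ranges that did not overlap. Scgb1a1 with Sftpc, Sftpc with mt-Co1, mt-Cytb with mt-Nd1, and mt-Nd2 with Cbr2 were among those 6. Cbr2 and the beta globin gene Hbb-bs did not differ beyond their spread, with Cbr2 higher in 3 of 5 libraries. Actb with Inmt, Sftpa1 with B2m, and Ager with Epas1 each also held their order in 3 of 5 libraries. In all, 22 genes were in the highest 25 of every library and 87 in the highest 100 of every library.

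Gene length shaped which genes led. By share of reads the 5 leading genes were Scgb1a1, Sftpc, mt-Co1, mt-Cytb and Epas1, the hypoxia-inducible factor of endothelium and type 2 cells. The 2 orders shared 19 of their highest 25 genes and 55 of their highest 100. Median exonic length was 1873 bases in the highest 100 by TPM and 4275 in the highest 100 by share of reads, against 4372 over all 14303 genes. A 57-base gene model, Gm23935, entered the highest 25 by TPM on a mean of only 38.0 CPM, which a length so short raises to 2174 TPM.

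**Figure D2:**
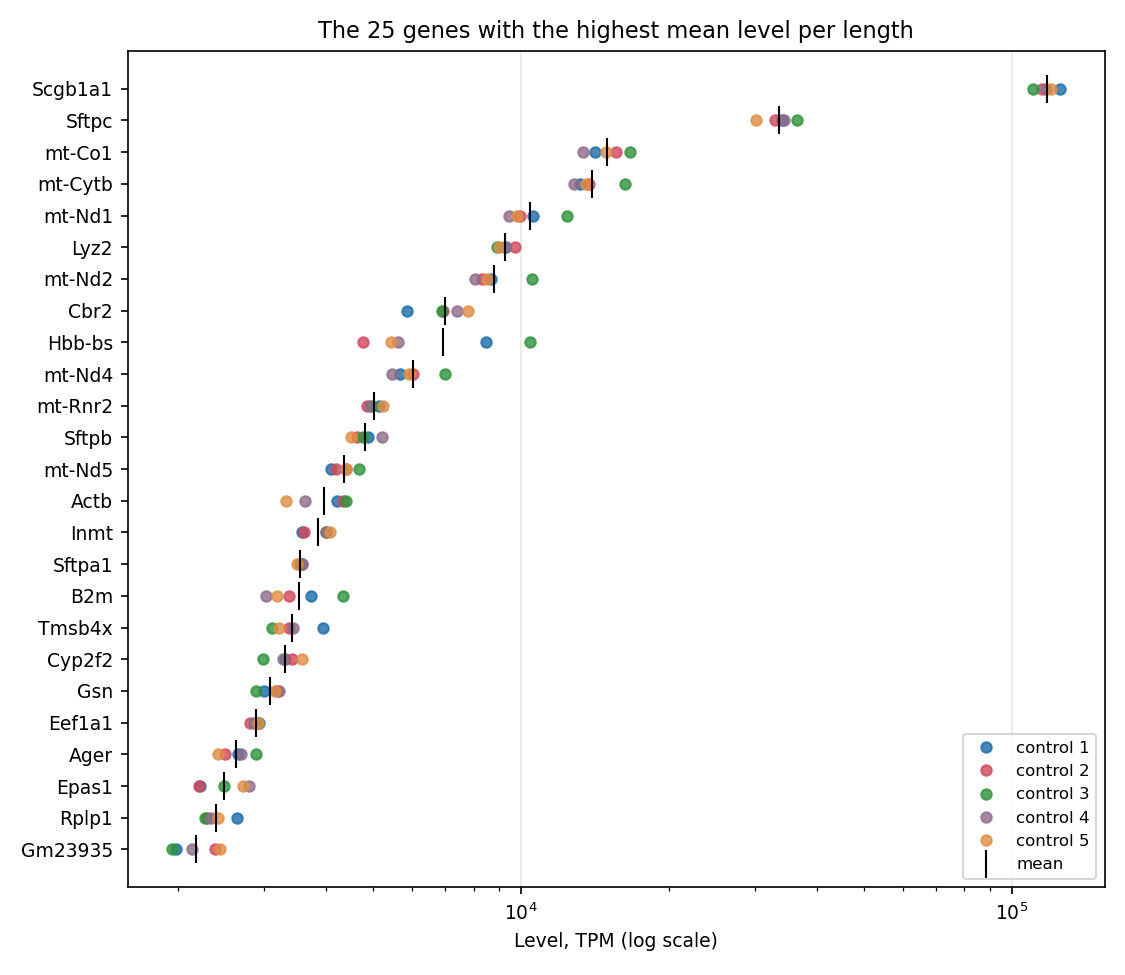
Level in TPM (log scale) of the 25 genes with the highest mean, 1 point per control library and a bar at the mean of 5. Points of Scgb1a1 and Sftpc lie apart from all others, while Hbb-bs has the widest range among the 25, with controls 1 and 3 high.

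The short stretch just upstream of the start of 4 abundant epithelial genes is printed to show a sequence feature that differs among them. It is an exact TATA box (the letters TATAAA on the gene's strand, beginning 40 to 21 bases before the start). Other forms of the box were not counted. Each is the 60 bases before the RefSeq start in GRCm38.p6, 5′ to 3′, with the box in capitals where present. They lie at chr14:41131728-41131787, chr5:90794474-90794533, chr6:72304550-72304609 and chr17:34597790-34597849, all on the plus strand.
Sftpa1: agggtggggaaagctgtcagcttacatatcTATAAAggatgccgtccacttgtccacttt
Cxcl15: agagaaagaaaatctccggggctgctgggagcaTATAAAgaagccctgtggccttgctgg
Sftpb: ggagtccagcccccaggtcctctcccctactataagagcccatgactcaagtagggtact
Ager: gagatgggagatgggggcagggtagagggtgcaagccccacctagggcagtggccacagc
The exact box was found in Sftpa1 and in Cxcl15, a chemokine of lung epithelium, and not in Sftpb or Ager. Sftpb holds the near match tataag, so the shares below are of the exact letters only and not of all TATA boxes. Of the highest 100 genes by TPM, 66 had a RefSeq promoter in the table, and 5 of these (7.58%) held the box. The share was 4.62% (35 of 758) in the highest 1000, 1.64% (178 of 10878) over all genes at 1 CPM or more in every library, and 2.41% (650 of 27025) over every promoter listed. Among genes with a single listed start the shares were 5.88%, 4.89%, 1.49% and 2.42%. A match of letters is a description and shows neither a site in use nor a cause.

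The mitochondrial transcripts had a gap. The 7 mitochondrially encoded protein genes with reads summed to 58864 ± 5288 TPM, led by mt-Co1 at 14937 ± 1292 and mt-Cytb, the cytochrome b gene, at 13915 ± 1348. The other 6, mt-Co2, mt-Atp8, mt-Atp6, mt-Co3, mt-Nd3 and mt-Nd4l, had 0 reads in all 5 libraries. They lie side by side, from 7013 to 10173 of the mitochondrial genome. Of the 75-base windows of 5 of them, 97.8% to 99.9% also occur in the transcript of another gene, a pseudogene on chromosome 1, while mt-Atp8 shares none. By the same measure mt-Co1 shared 39.8%, mt-Nd4 61.5%, and mt-Cytb and mt-Nd1 0%. Multiply aligned reads are not in the counts, and their part in these zeros was not tested. Summed mitochondrial levels here therefore leave out 6 genes.

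Lists of marker genes for 40 cell types were used to read the cell types. They were chosen with earlier results of these data known and are used as a description. Each gene stands in 1 list. Markers of the airway and alveolar epithelium took 19.0% of all TPM with 79 genes in 7 lists, and 16 of these genes were among the highest 100. By contrast 6 endothelial lists with 48 genes took 1.06%, 5 mesenchymal lists with 56 genes took 1.33%, and 11 leukocyte lists with 112 genes took 0.408%. These shares depend on which genes were listed. Beside mitochondrial, ribosomal and housekeeping genes, 55 of the highest 100 genes stood in no list and held 7.71% of TPM. They included Lyz2 (9251 TPM), Epas1 (2482 TPM) and Cd74 (1775 TPM).

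The sum depended on a few secretory transcripts. The median member told another order: 124 TPM for endothelial, 87.5 for mesenchymal, 46.2 for epithelial and 10.8 for leukocyte markers. These medians depend on which lists were pooled. Goblet, basal and neuroendocrine lists had medians of 2.34, 0.793 and 1.95 TPM, and type 2, club and type 1 lists 1063, 327 and 285. Of the endothelial lists, the pan-endothelial median was 345 TPM and the lymphatic 5.26. Among the highest 1000 genes were 24 of 48 endothelial markers, 22 of 56 mesenchymal, 30 of 79 epithelial and 5 of 112 leukocyte markers. These counts depend on the same pooling.

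Club cell markers summed to 131130 ± 5828 TPM and Scgb1a1 alone made up 89.8% of that. The other 11 summed to 13352 TPM, with a median of 327 over the 12. Scgb3a2, another club cell secretoglobin, had 1560 ± 408 TPM. By share of reads, with no length, the club cell list (23142 CPM) stood just below the alveolar type 2 list (23974 CPM), the reverse of the order by TPM.

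Alveolar type 2 markers had the highest median of the 40 lists. All 12 were at 1 CPM or more in every library, 8 were among the highest 100 genes and 11 among the highest 1000, and that median was 1063 TPM. Beyond the surfactant proteins these included Slc34a2, the phosphate transporter of type 2 cells, at 1602 ± 159 TPM, and Lamp3, a lamellar body protein, at 536 ± 29.1 TPM. Abca3, which loads phospholipid into lamellar bodies, had 224 ± 15.9 TPM. The list summed to 49742 ± 2737 TPM, or 16192 without Sftpc.

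Alveolar type 1 markers summed to 6880 ± 325 TPM with a median of 285, and 10 of 12 were among the highest 1000. The homeodomain protein gene Hopx had 1337 ± 98.7 TPM, and Aqp5, the alveolar water channel, 243 ± 16.0 TPM. Ciliated cell markers summed to 2404 ± 201 TPM, of which Sec14l3 made 1427 ± 120. The median ciliated marker stood at 46.9 TPM, and Foxj1, the master regulator of motile cilia, at 93.5 ± 30.0 TPM. Markers of rarer airway cells were low: goblet markers summed to 74.0 ± 68.3 TPM, neuroendocrine markers to 22.0 ± 3.12 and basal markers to 20.03 ± 7.93.

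The 12 pan-endothelial markers summed to 5257 ± 142 TPM with a median of 345, led by Cdh5 at 1023 ± 58.2 TPM and the tight junction protein gene Cldn5 at 899 ± 87.0 TPM. General capillary markers, led by Plvap of the fenestral diaphragm at 1095 ± 118 TPM, summed to 2184 ± 184. Markers of the Car4 aerocyte, the large capillary cell of gas exchange, summed to 1670 ± 121. Arterial, lymphatic and venous markers summed to 634 ± 37.8, 513 ± 160 and 308 ± 37.4 TPM. Of the lymphatic sum Lyve1, a hyaluronan receptor, made 440 ± 157 TPM, while the lymphatic fate regulator Prox1 had 1.59 ± 0.576 TPM.

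Among stromal cells, alveolar fibroblast markers summed to 6851 ± 269 TPM, of which Inmt was the main part, and Npnt, the matrix ligand nephronectin, had 761 ± 57.8. Adventitial and matrix fibroblast markers summed to 3321 ± 282, led by the elastic fibre protein gene Mfap4 at 1751 ± 236 TPM. Smooth muscle markers summed to 1524 ± 202, with the contractile actin gene Acta2 at 416 ± 60.9 TPM, and pericyte markers to 1314 ± 35.2.

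Leukocyte markers in the lists were lower, and none of those listed reached the highest 100 genes. B cell markers summed to 1227 ± 532 TPM, led by the antibody light chain constant gene Igkc at 566 TPM. Alveolar macrophage markers summed to 998 ± 176, led by the chitinase-like gene Chil3 at 363 ± 155 TPM. Interstitial macrophage markers summed to 332 ± 15.3, led by the complement gene C1qa at 81.6 ± 4.48. Neutrophil markers summed to 664 ± 285, and T and NK cell markers to 224 ± 52.3 and 224 ± 103.

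Eosinophil markers were very low, and the highest of them, Il5ra, had a mean of 0.985 TPM. None of the 6 reached 1 CPM in every library, their sum was 2.31 ± 0.925 TPM, and the granule protein gene Prg3 had 0 reads in each library. In comparison, the granule gene Prg2 had 0 to 0.220 CPM, no more than 3 reads in any library. Il33 itself, the alarmin cytokine given to the other mice, had 102 ± 15.4 TPM and its receptor gene Il1rl1 3.37 ± 0.353 TPM.

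Markers of blood and of tissues next to the lung were present too. Erythroid markers summed to 10695 ± 3866 TPM, the third highest sum of the 40 lists, led by Hbb-bs. Cardiac muscle markers summed to 1734 ± 917 TPM. In mice cardiac muscle also sheathes the pulmonary veins inside the lung, and which tissue gave these reads was not tested. Of the heart genes Myl7, the atrial myosin light chain, had 624 ± 330 TPM. Adipocyte markers summed to 189 ± 118. Defining markers of thymocytes, oesophageal epithelium and thyroid were near 0, with sums of 0.553, 0.512 and 1.33 TPM. Hepatocyte markers summed to 6.40 ± 7.96 TPM, of which Alb, serum albumin, had 6.16 CPM in control 3 and 0.508 to 1.76 CPM in the rest.

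**Figure D3:**
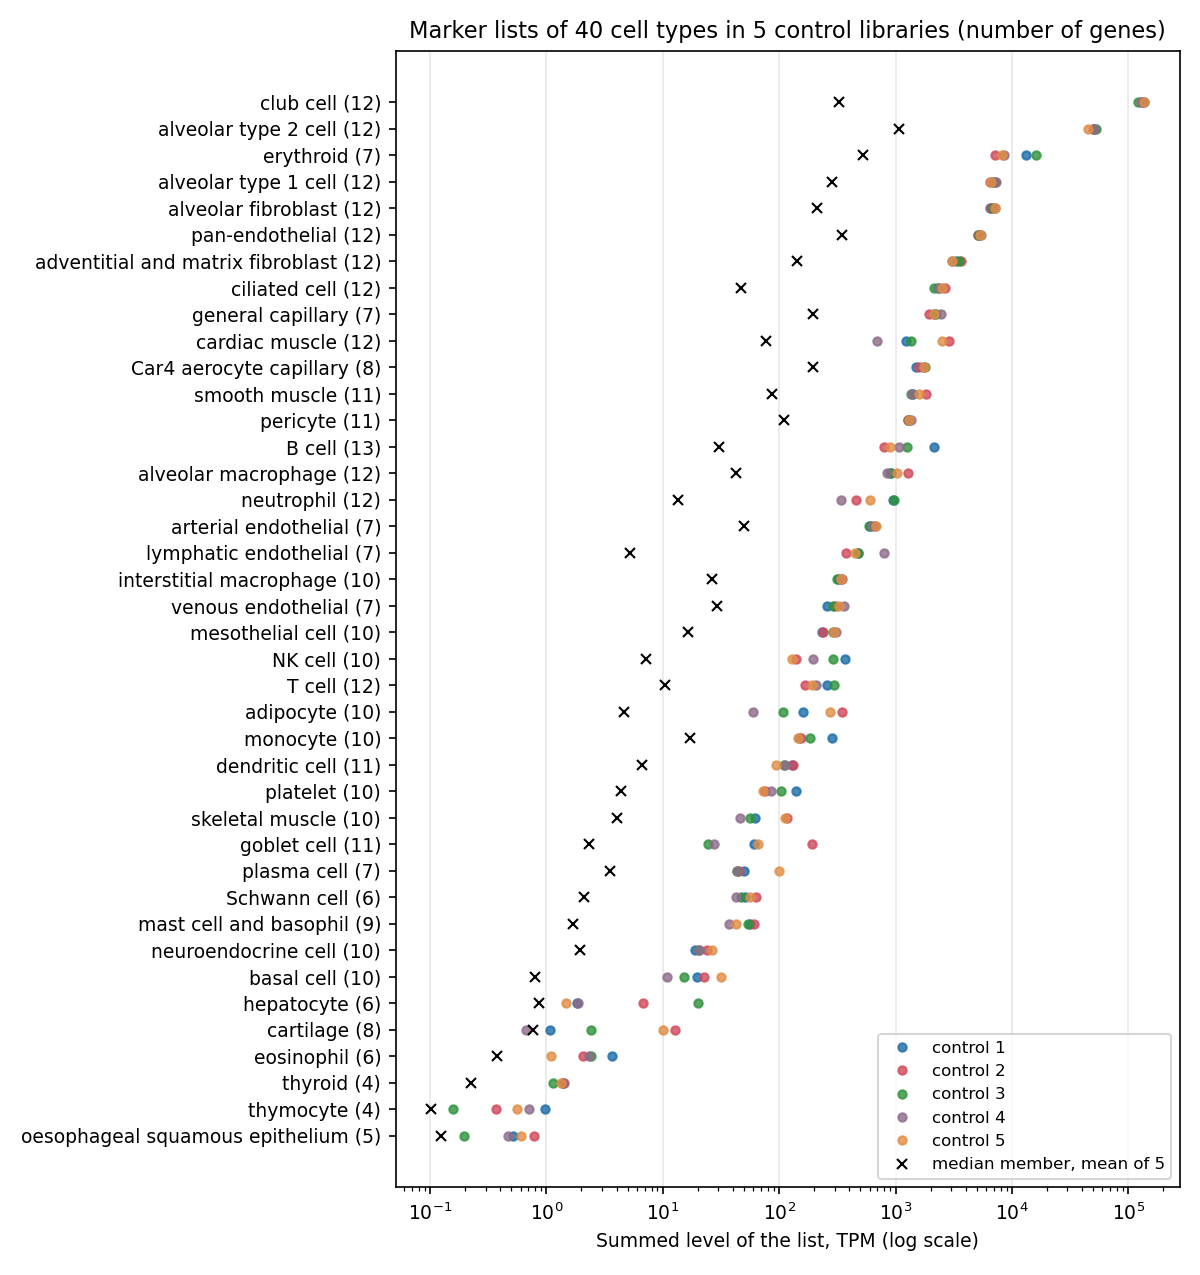
Summed level in TPM (log scale) of the markers of 40 cell types, 1 point per control library, with a cross at the median member; the number of genes in each list stands in parentheses. Club and alveolar type 2 lists lead, and the widest spread between libraries is seen in low lists and in the cardiac, B cell, neutrophil and goblet lists.

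The spread between libraries was narrow for most genes. Over the 10530 genes with a mean of 10 CPM or more, the SD of log2(CPM + 0.1) had a median of 0.12, and 3644 genes were under 0.1. Counting error alone would give a median of 0.067. The ratio of observed to counting variance had a median of 3.51 and was above 1 in 87.4% of these genes. Counting error alone would also put part of the genes above 1, and that part was not computed. The biological coefficient of variation in edgeR was 0.127. An SD above 0.5 was found in 208 genes (1.98%). The genes nearest that limit were Il10ra and Ly86 just above it, at 0.501 and 0.502, and Klf4 at 0.499 below it.

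Lists of alveolar type 1 cells and alveolar fibroblasts lay near the median SD of all genes. The type 2 list lay below it and both capillary lists above it, the general capillary list also above the upper quartile of 0.18. Markers of alveolar type 2 cells had a median SD of 0.09, of alveolar type 1 cells 0.12, of alveolar fibroblasts 0.13, of aerocytes 0.16 and of general capillaries 0.22. Among the 25% of genes with the highest CPM the median was 0.10. Tie1, an endothelial receptor kinase, measured 348, 339, 335, 338 and 337 CPM, and Kdr, the main VEGF receptor, 708, 692, 698, 692 and 675 CPM. Sftpa1 measured 3225, 3118, 3160, 3068 and 3028 CPM. In these 3 genes no library stood apart. Less even among type 2 markers was Cxcl15, with 1721, 1489, 1364, 1215 and 898 CPM, lowest in control 5. Of the 12 type 2 markers 7 were lowest in control 5, with a median deviation there of -0.08 on the log2 scale. Control 5 was lowest in 1848 of all 10530 genes at 10 CPM or more.

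Among the 208 variable genes some pairs of libraries were highest more often than others. Controls 2 and 5 were the highest pair in 84 of them, controls 1 and 3 in 59, and each of the other pairs in 17 or fewer. No count of pairs over all 10530 genes stands beside these. Control 2 had the highest value in 86 and control 1 in 73, while control 4 had the lowest in 70 and control 2 in 61. Over all 10530 genes, control 1 was highest in 3037 and control 2 in 2257, and control 4 was lowest in 1806 and control 2 in 2398. Of the lists, the cardiac one had 12 of 12 members above an SD of 0.5, the B cell one 11 of 12 at 10 CPM or more, the neutrophil one 6 of 6 and the NK cell one 4 of 4, against 1.98% over all genes. The lists were chosen with earlier results of these data known, so these counts are a description and no test. Some members passed the 10 CPM minimum through their high libraries. Mybpc3 had a mean of 11.2 CPM with 4.29 in control 4, and Cr2 10.6 with 4.18 in control 2. The neutrophil members include Ltf, whose libraries were ordered otherwise than those of S100a9. Leaving out control 1, 2, 3, 4 or 5 gave 173, 182, 254, 251 and 243 variable genes.

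Controls 2 and 5 were high, and control 4 low, in markers of heart and of larger airways. Myh6, the atrial and adult ventricular myosin heavy chain, measured 461, 1115, 473, 288 and 926 CPM. Nppa, the atrial natriuretic peptide, measured 1.09, 48.0, 16.5, 0 and 50.02 CPM. Nppa had the largest SD of the genes with a mean of 10 CPM or more, 3.90, a value that depends on the 0.1 CPM added to the 0 in control 4. Of its windows, 48.8% also occur in an antisense gene model. Control 4 was lowest in all 12 cardiac markers. Cartilage genes were also high in controls 2 and 5, at low level: Acan, the cartilage proteoglycan, measured 0, 6.27, 1.45, 0.0875 and 4.22 CPM. The adipocyte gene Cfd, adipsin, measured 21.3, 44.0, 12.9, 5.60 and 28.5 CPM.

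Some secretory genes of the upper conducting airway were also high in controls 2 and 5, though the full order of libraries differed. Bpifa1, an antimicrobial secreted protein of proximal airways, measured 86.7, 461, 84.0, 17.2 and 514 CPM. Reg3g, an antibacterial lectin, measured 17.4, 66.4, 10.3, 1.49 and 53.6 CPM. Scgb3a1, a secretoglobin of larger airways, measured 78.2, 256, 49.6, 22.5 and 163 CPM. Each was high in controls 2 and 5, with no overlap with the other 3 libraries. Bpifa1 spanned 29.8-fold and Reg3g 44.7-fold from lowest to highest library. Yet Scgb1a1 and Cyp2f2, markers of the same list, spanned only 1.15-fold and 1.16-fold.

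Ltf, lactoferrin, stands in the neutrophil list and measured 40.2, 145, 24.3, 9.80 and 186 CPM. Its libraries were ordered as those of Bpifa1 and not as those of S100a9. The mucin gene Muc5b measured 60.7, 160, 26.5, 38.9 and 95.0 CPM. Clca1, a goblet cell secreted protein, measured 14.4, 83.1, 2.57, 0.962 and 2.11 CPM and was high in control 2 alone, not in control 5. Control 2 was also highest in 10 of 12 ciliated, 11 of 11 smooth muscle and 11 of 12 adventitial fibroblast markers, though their median deviations from the gene means there were only 0.41, 0.33 and 0.30 on the log2 scale. Cardiac and cartilage markers moved with these airway genes, and their part in the airway values was not tested.

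Blood and lymphoid genes followed another order, with control 1, control 3 or both high and control 2 often low. Cd79a, part of the B cell receptor, measured 54.0, 5.50, 25.6, 25.8 and 14.8 CPM, a 9.82-fold span. All 13 B cell markers were highest in control 1, and 11 were lowest in control 2. S100a9, a calprotectin subunit of neutrophils, measured 90.7, 27.5, 84.9, 27.1 and 38.3 CPM, and Csf3r, the G-CSF receptor, 85.0, 39.6, 89.4, 28.3 and 37.2 CPM. For both, controls 1 and 3 lay above the other 3 with no overlap. Of 9 neutrophil markers at a mean of 1 CPM, 7 were highest in control 3. Over all 10530 genes at 10 CPM or more, control 3 was highest in 1781.

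Hbb-bs measured 2069, 1112, 2495, 1290 and 1260 CPM. The alpha globin genes Hba-a1 and Hba-a2 and the beta globin gene Hbb-bt were also high in controls 1 and 3 and lowest in control 2. Hba-a1 measured 517, 265, 672, 315 and 296 CPM. Hbb-bs and Hba-a1 share 51.5% and 67.9% of their windows with another gene, so the split of reads between near-identical copies is uncertain. Alas2, the erythroid haem synthesis enzyme, measured 106, 50.6, 117, 63.7 and 61.1 CPM. The granzyme gene Gzma of NK cells measured 53.0, 18.1, 37.3, 24.9 and 18.4 CPM. T cell markers were highest in control 3 for 8 of 12 and lowest in control 2 for 11 of 12. All 10 monocyte and all 8 platelet markers at 1 CPM were highest in control 1. Over all 10530 genes at 10 CPM or more, control 3 was highest in 1781, control 1 highest in 3037 and control 2 lowest in 2398. The B cell receptor gene thus shared its highest library with monocyte and platelet markers, and the globins theirs with neutrophil markers.

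**Figure D4:**
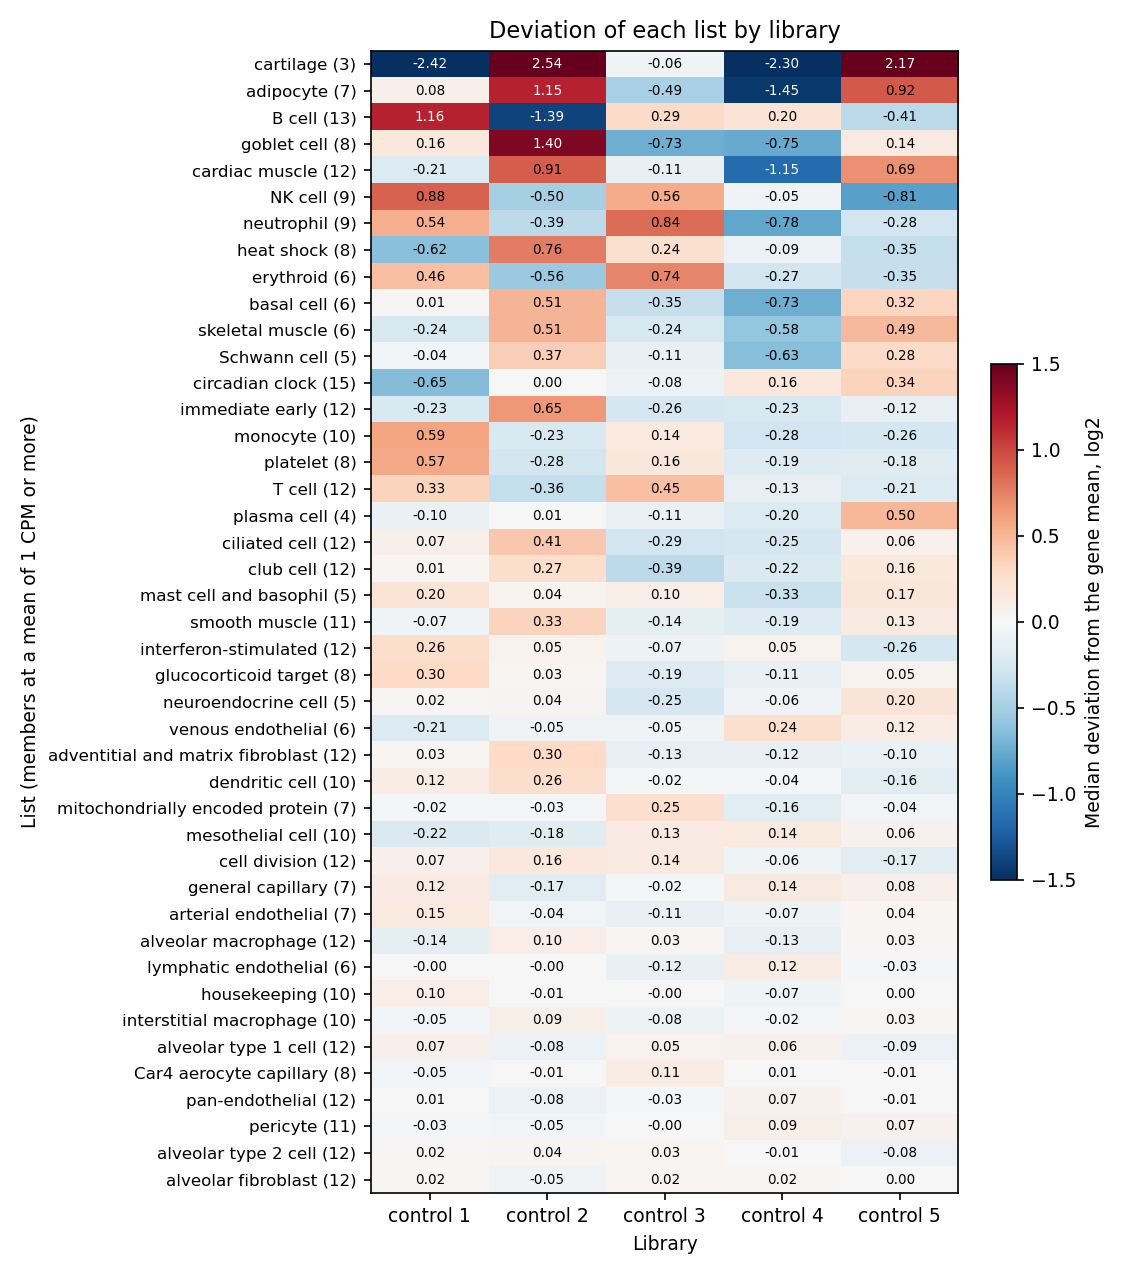
Median deviation of a list's members from their mean over 5 libraries, in log2 units of CPM + 0.1, by control library and list, widest range at the top; colours end at 1.5 either way, and the number of members at a mean of 1 CPM or more stands in parentheses. B cell markers run from 1.16 in control 1 to -1.39 in control 2 and cardiac markers from 0.91 in control 2 to -1.15 in control 4, while alveolar fibroblast markers stay between -0.05 and 0.02.

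Stress response genes were high in control 2. Hspa1a, an inducible heat shock protein of the HSP70 family, measured 5.88, 124, 12, 5.51 and 5.94 CPM, and its near-identical copy Hspa1b 6.32, 139, 32.5, 12 and 6.13 CPM. They share 61.7% and 55.8% of their windows with other genes. The immediate early gene Fos, a subunit of AP-1, measured 76.4, 253, 74.2, 69.4 and 71.4 CPM, and Atf3, a stress-induced transcription factor, 12.9, 73.4, 16.3, 11.9 and 14.2 CPM. In Fos and Atf3 the other 4 libraries lay close together. Of 12 immediate early genes 9 were highest in control 2. Without control 2, no immediate early gene had an SD above 0.5, against 5 of 11 with it, and 3 of 8 heat shock genes did, against 4.

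Clock genes set control 1 apart. Per2, a repressor of the clock, measured 45.8, 125, 83.3, 112 and 166 CPM, and Dbp, an output transcription factor, 66.0, 158, 168, 187 and 209 CPM. Arntl, the activator that runs in opposite phase to these, measured 20.4, 10.2, 11.5, 9.80 and 5.85 CPM, and Npas2, its partner, 6.39, 2.09, 1.34, 1.49 and 1.44 CPM. Control 1 was lowest in Per2 and Dbp and highest in Arntl and Npas2, and control 5 lay at the other end for Per2, Dbp and Arntl. Of 15 clock genes, 11 were lowest in control 1 and 9 highest in control 5. Over all 10530 genes at 10 CPM or more, control 1 was lowest in 2030 and control 5 highest in 1889. The labels give no time of death. Without control 1, 1 of 14 clock genes at 10 CPM had an SD above 0.5, against 7 with it.

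A pair of glucocorticoid-responsive genes was far apart in controls 1 and 2. Zbtb16, a zinc finger factor induced by glucocorticoid, measured 33.2, 454, 76.1, 188 and 174 CPM, and Fkbp5, a co-chaperone of the receptor, 23.5, 93.7, 43.1, 63.4 and 55.7 CPM. Both were lowest in control 1 and highest in control 2. Over all 8 genes of that list the median deviation was 0.30 in control 1 and 0.03 in control 2, and 5 of the 8 were highest in control 1, so the list as a whole did not follow them. Without control 1 only 1 of the 8 had an SD above 0.5, against 3 with it.

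Other single genes stood apart in other libraries. Cyp26b1, a retinoic acid hydroxylase, measured 10.3, 16.2, 17.3, 96.1 and 21.1 CPM, high in control 4. Lyve1 was high there too, at 375, 271, 371, 622 and 330 CPM. Tmem132c, a membrane protein, measured 37.2, 31.1, 2.01, 29.0 and 11.8 CPM, low in control 3. At the other end of the scale Tbc1d9b was the most even of the genes at 100 CPM or more, with 150 to 153 CPM and an SD of 0.01.

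**Figure D5:**
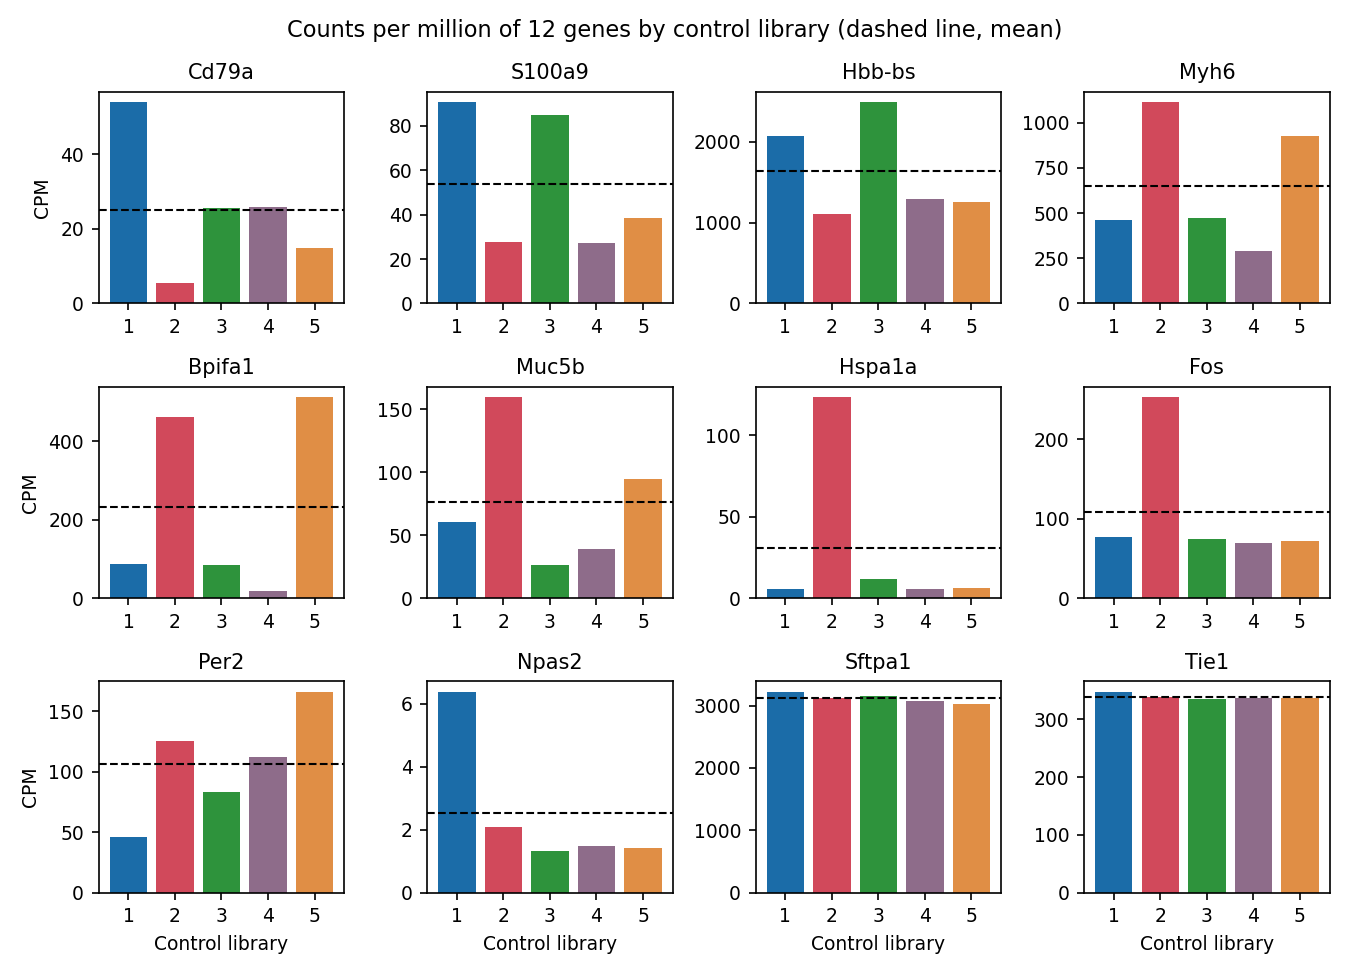
CPM of 12 genes in each of the 5 control libraries (bars from 0, separate scale per gene), with a dashed line at the mean. Cd79a, S100a9 and Hbb-bs are high in controls 1 or 3, Myh6 and Bpifa1 in controls 2 and 5, Hspa1a and Fos in control 2, and Npas2 in control 1, while Sftpa1 and Tie1 are nearly level.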

How the data were processed

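Raw counts of reads per gene, with no normalization, were deposited by the authors for each library. STAR 2.5.4b, HTSeq 0.9.1, FastQC 0.11.6, MultiQC 1.6 and the GRCm38 genome are named in the submitters' processing notes. Neither the annotation release nor the strand setting is given there, so overlapping or antisense genes may share reads. Only control files were used. Summary entries without a gene name stayed out of all totals (0.908% to 0.938% of records were ambiguous). CPM is a gene's count over the counted reads of its library, and TPM divides by the union of exons in GENCODE, matched by identifier for 53360 of 53465 genes. Of 473 listed marker symbols 472 matched, and Ahsp did not. No groups were compared, so no p-value is given.

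Spread is the SD of log2(CPM + 0.1) at a mean of 10 CPM or more, with the dispersion of edgeR 4.0.16 (R 4.3.3, intercept only). On simulated counts of 53465 genes, with the biological coefficient of variation set at 0.12, it recovered 89.5% of 200 genes made more variable. It called 0 others. These rates hold for the simulated settings only, so they give no error rate for the 208 variable genes of the data. No library was a duplicate of another: chi-square per degree of freedom between pairs was 5.09 to 13.2, a measure against counting error only. Shared sequence is given as the percent of all 75-base windows along a gene that recur in transcripts of any other gene. A Dixon ratio, the gap of the end library over the range, was compared with 0.71.

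Alternatives were TMM and DESeq2 1.42.0 factors, other lengths and minimums, no mitochondrial genes, and leaving out each library, and for list counts the last was added after the data were seen. Named genes were the highest 25 by TPM and CPM, the end members of each list and the 20 most variable genes, and others were chosen after their values were seen. The members and lists were chosen with earlier results of these data known. Python 3.11.15, pandas 2.3.3 and matplotlib 3.10.9 were used.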

Additional observations from a re-analysis of the deposited data

Results flagged for a closer look

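Among 5 libraries, a value was marked when the gap between the highest or lowest library and its neighbour took more than 0.71 of the whole range. Chance marks about 1 in 20 such groups. Here 5 of 43 lists and 12 of 87 printed genes were marked. Many of these genes were printed because they varied, and the lists were chosen with earlier results of these data known. Neither count can therefore be read against that rate.

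Control 2 had several marks. Its goblet list summed to 191 TPM against 24.4 to 66.0 in the others (ratio 0.751), and its immediate early list to 3047 TPM against 1688 to 1960 (ratio 0.80). The genes Fos (0.962), Atf3 (0.928), Hspa1a (0.945), Hspa1b (0.801) and Clca1 (0.837) were each highest in control 2.

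Control 1 had the highest monocyte sum, 283 TPM against 145 to 184 (ratio 0.720), and the highest Npas2 (0.852). Control 3 had the highest Alb (0.779) and mt-Cytb, at 5798 CPM against 4402 to 4789 (0.723). Control 4 had the highest lymphatic endothelial sum, 790 TPM against 375 to 478 (ratio 0.753), of which Lyve1 was the main part, and the highest Cyp26b1 (0.874).

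Control 5 had the highest plasma cell sum, 99.1 TPM against 43.2 to 49.5 (ratio 0.887), and the highest Igha (0.749). It was lowest in Npnt, at 1001 CPM against 1186 to 1252 (0.739), and in Tbc1d9b, at 150 CPM against 153 in each of the other 4 (0.883), a gene whose whole range is narrow.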

How the results depend on the processing

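No paired analysis was possible because only control libraries were used and no groups were compared. Of the values recomputed, 114 were labelled the same and 25 moved, and these labels do not rank the size of the change. Genes at 5 CPM or more in every library numbered 11580, against 14303 at 1 CPM, and were labelled the same. By share of reads with no length, club, alveolar type 2, alveolar type 1 and pan-endothelial markers summed to 23142, 23974, 6478 and 6939 CPM. With the longest transcript as length, club, type 1 and pan-endothelial sums were 106724, 6443 and 5527 TPM. Without mitochondrially encoded genes the 4 sums were 140372, 53261, 7366 and 5628 TPM, and the 10 and 100 most abundant genes took 5.51% and 16.8% of reads. At a mean of 1 CPM or more, the median SD was 0.16 and 1046 genes had an SD above 0.5, over a larger set of genes. Scaling without the 50 most abundant genes gave a median SD of 0.13. Leaving out 1 library gave median SDs of 0.11 to 0.13 and biological coefficients of variation of 0.115 to 0.134, and DESeq2 gave 0.116. Leaving out 1 library gave 1 to 8 clock genes (1 without control 1), 0 to 7 immediate early genes (0 without control 2) and 1 to 5 erythroid genes (2 without control 2, 1 without control 3) with an SD above 0.5. At 8935159 reads, 3 reads stand for 0.336 CPM, so levels under that were not measurable in the shallowest library.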

Other observations

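Igha, the constant gene of IgA, measured 16.1, 8.57, 18.5, 18.2 and 48.0 CPM in controls 1 to 5, and Jchain, which joins IgA and IgM into polymers, 11.3, 16.9, 6.38, 6.38 and 22.0 CPM. Both were highest in control 5, though the other libraries were ordered differently for each, and there B cell markers had a median deviation of -0.41 on the log2 scale.

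Txnip, an inhibitor of thioredoxin that responds to glucose, was among the abundant genes whose level varied, with 2142, 900, 1421, 1032 and 1115 CPM and an SD of log2 values of 0.49. Cell division genes were low and even: 12 of them summed to 50.2 ± 2.44 TPM (SD, n = 5). The 12 interferon-stimulated genes summed to 280 ± 19.3 TPM.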
